A study of Homo sapiens with 10 samples.

Results

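FAM107A and FAM3D are adjacent genes on chromosome 3, and they are 2 of the 57353 genes counted by RNA sequencing in 10 samples of the castration-resistant prostate cancer cell line LNCaP-C4-2. The pair was chosen from these same counts, with its values in the 10 samples already seen, so the levels and fold changes of both members are given as a description and carry no test. Messenger RNA was sequenced from 4 lines of these cells, each made with a lentivirus. The NT line (2 samples) carried a non-targeting shRNA and the KD line (3 samples) an shRNA against CPT1A, and puromycin at 1 ug/ml selected both. The EV line (2 samples) carried empty virus and the OE line (3 samples) a CPT1A cDNA, and blasticidin at 5 ug/ml selected both. The methods name 1 shRNA and a clone of an open reading frame library, describe a single line of each kind, and do not say that replicates were separate transductions. The p-values below therefore measure the spread between samples of a line only, which may be technical, and what the transgene does cannot be told apart from what sets 1 transduced line apart from another.

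CPT1A is the mitochondrial enzyme that commits long-chain fatty acids to oxidation by coupling them to carnitine. FAM107A, also called DRR1 or TU3A, encodes an intracellular protein that binds actin filaments; its gene is known to be induced by stress and glucocorticoids, is high in brain, and is often expressed at low levels in tumours, prostate cancer among them. FAM3D encodes a small secreted protein of the cytokine-like FAM3 family, is known mainly from the gut, and has been described as a ligand of formyl peptide receptors.

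In the GENCODE v44 annotation of GRCh38, FAM107A lies at chr3:58564117-58627610 and FAM3D at chr3:58633946-58666834, both on the minus strand. FAM3D is therefore the upstream neighbour, and 6335 bases separate its end from the first FAM107A start. FAM107A has 8 annotated transcripts, 7 of them coding, and its joined exons cover 5321 bases. FAM3D has 5, 4 of them coding, and its joined exons cover 1626 bases. The antisense gene FAM3D-AS1 shares 324 exon bases with FAM3D and 0 with FAM107A. The methods do not state whether counting used strand, so reads from FAM3D and FAM3D-AS1 over those bases cannot be told apart, although FAM3D-AS1 itself held at most 1 count in any sample. Counts were made per gene, so they do not show which FAM107A start was used in any line. Nor do they show whether the FAM107A reads in OE cover the whole gene or its coding sequence alone.

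The sequences upstream of the annotated starts are shown because the genes are neighbours on 1 strand with separate starts and very different counts. They come from RefSeq on GRCh38.p14, are written 5′ to 3′ on the minus strand, and leave out bases that the annotation places in an exon of the same gene. RefSeq gives 3 start windows for FAM107A and 1 for FAM3D; the window at the third FAM107A start (58577391) is wholly exonic for other transcripts and is not printed. The run before the first FAM107A start (chr3:58627611-58627860) lies between the genes, and that before the start at 58587014 (chr3:58587114-58587264) lies in a FAM107A intron. That of FAM3D (chr3:58666835-58667024) lies upstream of the 5′ boundary of the annotated FAM3D span. Capitals mark a match to a motif searched.
FAM107A first start: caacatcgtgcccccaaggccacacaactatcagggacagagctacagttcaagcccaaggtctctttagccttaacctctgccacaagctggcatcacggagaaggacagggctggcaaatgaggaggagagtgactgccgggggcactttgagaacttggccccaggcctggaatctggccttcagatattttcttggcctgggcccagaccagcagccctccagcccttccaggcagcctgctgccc
FAM107A start at 58587014: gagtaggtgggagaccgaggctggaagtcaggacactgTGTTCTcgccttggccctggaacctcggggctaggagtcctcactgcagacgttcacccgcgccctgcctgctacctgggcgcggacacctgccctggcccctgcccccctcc
FAM3D start: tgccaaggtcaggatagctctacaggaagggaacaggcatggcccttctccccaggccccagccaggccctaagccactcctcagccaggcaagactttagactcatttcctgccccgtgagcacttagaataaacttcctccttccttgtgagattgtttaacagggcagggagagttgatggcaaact

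Motifs were searched on both strands of the 250 bases before each start and counted in the same 250 bases of all 35116 RefSeq windows. The palindrome of 15 letters bound by the glucocorticoid receptor was in 1 window (0.00285%) and in none of the 4 windows of the pair. Its hexamer TGTTCT, which is contained in the palindrome, was in 12.4% of windows and occurred once in the FAM107A window at 58587014, where it is in capitals. The letters GGGCGG, a GC box, were in 42.6% of windows and occurred in the exonic part of that window and in the window at 58577391. The cAMP response element TGACGTCA (1.65% of windows), TATAAA (10.7%) and CCAAT (32.0%) had no match in the 4 windows. The start at 58587014 was the most CpG-rich of the 4, with 23 CG pairs in its 250 bases, against 3 at the first FAM107A start, 7 at 58577391, 4 at FAM3D and a median of 11 over all windows. A match is a run of letters only, and nothing about a factor was measured.

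Total counts were 26253609 and 24881229 in NT, 25019209 to 28615770 in KD, 25394853 and 24225383 in EV and 23555205 to 27214018 in OE. In each sample 3 counts correspond to between 0.0994 and 0.136 CPM, the counts per library size scaled with the trimmed mean of M values (TMM). KD 2 stood apart from its replicates: its counts differed from KD 1 and KD 3 by a chi-square per degree of freedom of 6.51 and 6.63, against 2.24 between KD 1 and KD 3. OE 2 differed from OE 1 and OE 3 by 3.78 and 4.34, against 2.13 between those samples. No replicate pair was within sampling noise, and the lowest value was 1.99, for EV 1 and EV 2.

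CPT1A matched the labels. Its CPM was 265 and 261.5 in NT, 81.2, 86.4 and 86.1 in KD, 325 and 317 in EV, and 869, 913 and 860.5 in OE, with no overlap between lines. It fell in KD against NT by 1.64 on the log2 scale (SE 0.05, edgeR quasi-likelihood adjusted p = 2.45e-18) and rose in OE against EV by 1.45 (SE 0.05, edgeR adjusted p = 2.54e-17). CPT1A was also higher in EV than in NT, by 0.29 (SE 0.05, edgeR adjusted p = 9.8e-05), a call lost under 10 of 17 alternatives, where p reached 0.00692.

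The cells carried the markers of their labelled type. All 10 prostate luminal markers, among them FOXA1, HOXB13 and TMPRSS2, were above 3 counts in all 10 samples, and KLK3 led them at 2353 to 5941 CPM. Of these, 6 were called higher and 1 lower in OE against EV, and 4 and 2 in KD against NT. In EV against NT they were 6 and 0, and in the interaction 1 and 1. Shares over all tested genes were 11.6%, 16.4%, 5.25% and 6.94% higher and 10.3%, 12.8%, 2.91% and 8.98% lower. The difference from these shares was not tested. Markers of other cell types were low beside the luminal markers, although COL1A1, VWF and PHGR1 were above FAM3D in every sample. The 13 stromal, glial, endothelial and leukocyte markers summed to 18.6 and 19.1 CPM in NT, 25.9 to 28.5 in KD, 17.0 and 18.6 in EV and 21.7 to 24.4 in OE, led by COL1A1, with COL1A2 and PECAM1 at 0 in all samples. All 6 tested markers of this list had a positive log2 fold change in KD against NT (median 0.93), and 1 was called, where 16.4% of all tested genes were called higher. GFAP and MYH11 had at most 5 counts in each NT sample, while the better counted COL1A1 and VWF rose by 0.63 and 0.10. The 13 intestinal markers summed to 12.2 to 14.8 CPM in NT and KD, 16.2 and 18.6 in EV and 23.4 to 27.5 in OE, with CDX1 and FABP1 at 0 in all samples. PHGR1 had the highest mean and made up 16.9 to 21.5 CPM of the OE sums. Of 5 tested, 2 were called lower in KD against NT, 1 higher in OE against EV and 1 higher in EV against NT, where 12.8%, 11.6% and 5.25% of all tested genes were called in those directions. These are bulk samples, so more cells expressing a gene and more RNA per cell cannot be told apart, for this sum or for any level below.

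FAM107A was near the detection limit in 3 lines and abundant in the other. It had 10 and 12 counts in NT, 10, 14 and 14 in KD, and 11 and 7 in EV. The OE samples had 33267, 30174 and 33663 counts. Scaled to CPM, these were 0.377 and 0.476 in NT, 0.383, 0.552 and 0.464 in KD, 0.429 and 0.284 in EV, and 1326, 1365 and 1302 in OE. All 3 OE samples were far above the 7 others, while NT, KD and EV overlapped.

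**Figure D1:**
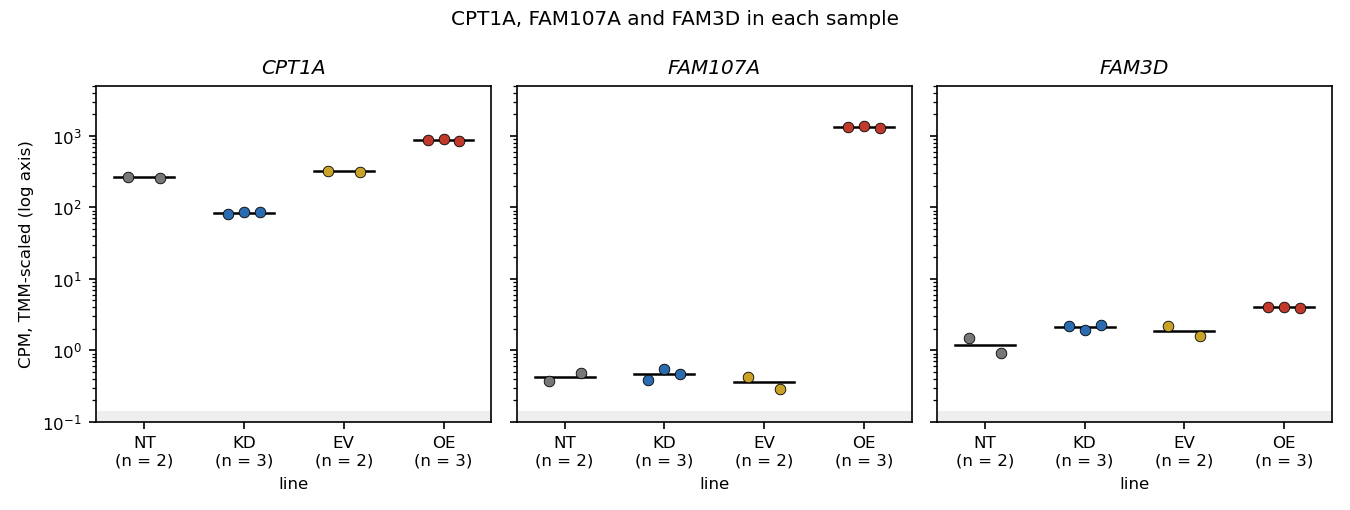
CPM after TMM scaling (log axis) of CPT1A, FAM107A and FAM3D in each sample of the 4 lines; points are samples, bars are line means, and the grey band is the range at or under 3 counts. Within each panel the lines can be compared: FAM107A was 1302 to 1365 CPM in the OE samples and 0.284 to 0.552 CPM in the 7 others, and FAM3D was 3.94 to 4.07 CPM in OE and 0.913 to 2.29 CPM in the others.

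The order of the FAM107A line means was OE (1331 ± 31.8 CPM, SD, n = 3), KD (0.466 ± 0.0846, n = 3), NT (0.427 ± 0.0702, n = 2) and EV (0.356 ± 0.103, n = 2). The last 3 were not separated by their spread. The 7 samples outside OE held 78 FAM107A counts in all, a median of 11 per sample. The relative spread of CPM in OE was 2.39%, against 0.556% expected from counting alone, so the OE replicates agreed closely but not to counting precision. In the other lines it was 16.4% to 28.8%, under the 28.1% to 33.3% that counting alone gives.

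Ratios of summed counts, scaled by TMM library size, give FAM107A at 3716 times its EV level in OE, with an exact 95% interval of 2351 to 6270 that covers counting error only. The width of this interval comes from the 18 EV counts. Against NT the OE ratio was 3124 (2064 to 4986) and against KD it was 2856 (2081 to 4036). The ratio of KD to NT was 1.09 (0.631 to 1.94) and that of EV to NT 0.841 (0.425 to 1.64). These ratios describe the counts and are no test.

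On the log2 scale of the edgeR fit, FAM107A was 11.84 higher in OE than in EV, 0.13 higher in KD than in NT and 0.25 lower in EV than in NT, a coefficient of -0.25. The interaction, which is the OE to EV difference minus the KD to NT difference, was 11.71. In the OE to EV comparison and in the interaction these were the highest log2 fold changes among the 17230 tested genes, which is what the choice of FAM107A rested on. The next in OE against EV were RFX4 (6.75), AMN (5.83), ITIH6 (5.34) and PNMA5 (4.93), named after their values were seen. RFX4 and ITIH6 had 0 counts in both EV samples and PNMA5 had 0 and 2, so the sizes and order of such folds depend on the prior count of the fit. In KD against NT, FAM107A ranked 13817 by size of fold change.

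FAM107A took 0.127% of all counts in OE 1 (exact 95% interval 0.125% to 0.128%), 0.128% in OE 2 (0.127% to 0.13%) and 0.124% in OE 3 (0.122% to 0.125%). By counts it ranked between 56 and 61 of all genes in those libraries, and between 14968 and 16826 in the others. Per kilobase of joined exons its level was 245 to 256.5 CPM in the OE samples, above CPT1A, the introduced gene, at a mean of 134.1 CPM. The divisor is the whole exon union, while the introduced CPT1A is a cDNA and the transcribed part of FAM107A is not known, so levels per kilobase and ranks by them may change with the true lengths. In OE, FAM107A ranked 87 by mean CPM per kilobase among 14521 tested genes with a length, and in EV it ranked 14131. CPT1A ranked 200 and 621. The CPM ratio of FAM107A to CPT1A was nearly constant in OE, at 1.52, 1.49 and 1.51, while in the 7 other samples it was between 0.000894 and 0.00639.

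FAM3D was expressed at a low level in every line. It had 39 and 23 counts in NT, 57, 49 and 69 in KD, 56 and 39 in EV, and 102, 88 and 102 in OE. As CPM these were 1.47 and 0.913 in NT, 2.18, 1.93 and 2.29 in KD, 2.18 and 1.58 in EV, and 4.07, 3.98 and 3.94 in OE. By CPM the OE samples were above all 7 others, the NT samples were below all others, and KD and EV overlapped. NT 1 and EV 2 had equal counts, so their order comes from library scaling only.

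FAM3D line means were ordered OE (4.0 ± 0.0623 CPM, SD, n = 3), KD (2.13 ± 0.182, n = 3), EV (1.88 ± 0.425, n = 2) and NT (1.19 ± 0.394, n = 2), and KD and EV did not differ beyond their spread. The lowest OE sample was 1.72 times the highest of the others, against 2358 times for FAM107A. From summed counts the ratio of OE to EV was 2.12 (1.67 to 2.70), that of KD to NT 1.79 (1.33 to 2.43) and that of EV to NT 1.57 (1.13 to 2.21). These intervals cover counting error only, not the spread between samples, and are no test. In log2 units of the edgeR fit the differences of OE from EV, KD from NT and EV from NT were 1.08, 0.84 and 0.65, with an interaction of 0.25. FAM3D CPM spread by 33.1% in NT and 22.6% in EV, above the 18.0% and 14.5% that counting alone gives, and by 8.56% in KD and 1.56% in OE, under the 13.1% and 10.1% of counting; with 2 or 3 samples a line these are rough. All KD and EV samples were above both NT samples in FAM3D CPM, whereas the 3 lines overlapped in FAM107A. For EV this separation is slight, since NT 1 and EV 2 each had 39 FAM3D counts.

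The NT samples decide much of this: the FAM3D log2 difference of KD from NT was 1.23 without NT 1 and 0.54 without NT 2, and that of EV from NT was 1.04 and 0.36. Its interaction was -0.14 without NT 1 and 0.54 without NT 2, so no direction is given for it. Leaving out KD 2, which stood apart, gave KD to NT differences of 0.90 for FAM3D and 0.0045 for FAM107A. By size of fold change FAM3D ranked 1101 in OE against EV, 2886 in KD against NT and 11048 in the interaction, of 17230 tested genes. Per kilobase it was 2.43 to 2.50 CPM in the OE samples and 0.561 to 1.41 in the others, where FAM107A was at 0.0533 to 0.104. FAM3D was therefore the higher of the pair per kilobase in 7 samples and the lower in 3.

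Both members passed the expression filter, which needed 0.397 CPM in at least 2 libraries, and both passed it without the OE samples. FAM107A counts in the 7 samples lay between 7 and 14 against that limit, and FAM3D counts between 23 and 69.

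To place the FAM107A pattern among all 57353 genes, the lowest CPM in the samples of a line was divided by the highest CPM in any other sample, with values under 3 counts set to 3 counts. In OE, 2 genes were over 10 by this ratio and 1 was over 100. They were FAM107A (2358) and AMN (38.2), which encodes the membrane anchor of the intestinal vitamin B12 receptor. The other OE genes were lower, led by NXPH4 (9.90), PNMA5 (9.83), NDUFA4L2 (7.12) and LGALS1 (5.15). In NT, KD and EV no gene reached 10, and the highest were LINC00632 in NT (7.18), AL034345.2 in KD (4.64) and ALDH1L2 in EV (8.52). These genes were picked by their values, and the ratios are a description.

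**Figure D2:**
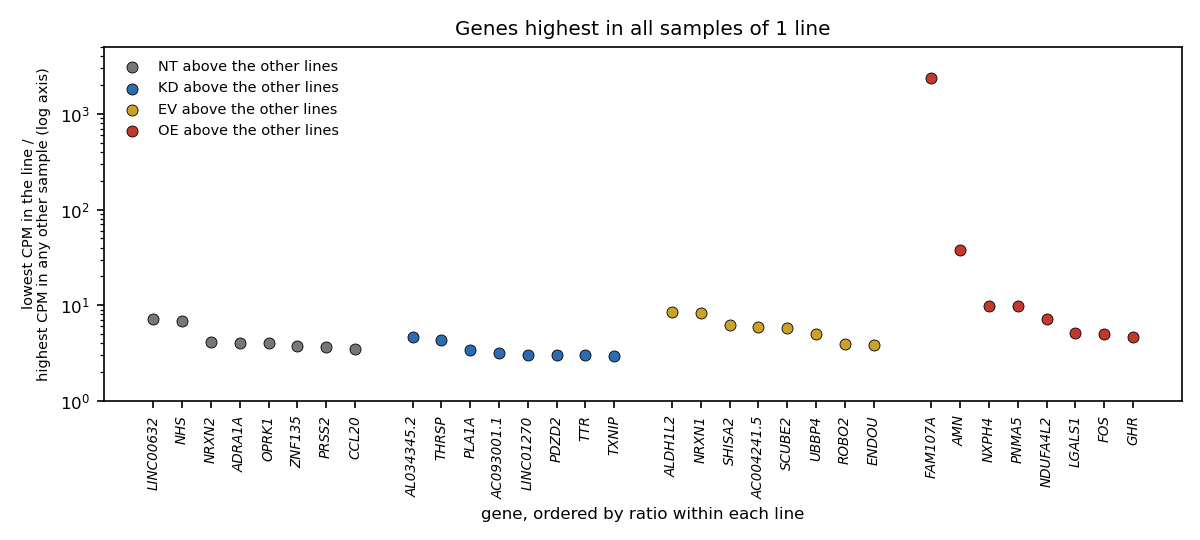
Lowest CPM in the samples of a line divided by the highest CPM in any other sample (log axis), with values under 3 counts set to 3 counts, for the 8 genes with the highest ratio in each line. FAM107A in OE is at 2358, AMN at 38.2, and all other genes plotted are under 10.

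The tested genes nearest in pattern were taken by the smallest root mean square difference from the member in centred log2 CPM over the 10 samples. For FAM107A they were AMN (2.43), PNMA5 (3.44), LGALS1 (3.596), NDUFA4L2 (3.64) and NXPH4 (3.64), against a standard deviation of FAM107A itself of 5.51. None came close, because none changed as much. AMN had a mean of 48.7 CPM in OE and 0.458 to 0.859 in the other lines. LGALS1, a galactose-binding lectin, was 21.4 CPM in OE and, unlike FAM107A, higher in KD (3.83) than in NT (0.442). NXPH4, a neurexophilin, had means of 834.8 CPM in OE and 68.9 to 79.9 elsewhere.

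FAM3D had a standard deviation of 0.6755, so distances from it are small by nature. The genes nearest to it were at 0.184 for HIST1H1C, a linker histone, 0.212 for PEX10, a peroxisomal ubiquitin ligase, 0.213 for SEC24D, a coat protein of vesicles leaving the endoplasmic reticulum, 0.223 for BHLHE40, a transcription repressor, and 0.232 for KLK2, a prostate kallikrein. Each was lowest in NT, intermediate in KD and EV and highest in OE. They were picked for closeness to FAM3D over these same samples, so the shared course follows from the choice. HIST1H1C, for example, had line means of 22.4 CPM in NT, 33.2 in EV, 33.4 in KD and 63.2 in OE. The measure depends on the size of change, so the difference of 4.70 between FAM107A and FAM3D mostly reflects their standard deviations and does not show whether the patterns are alike in shape.

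**Figure D3:**
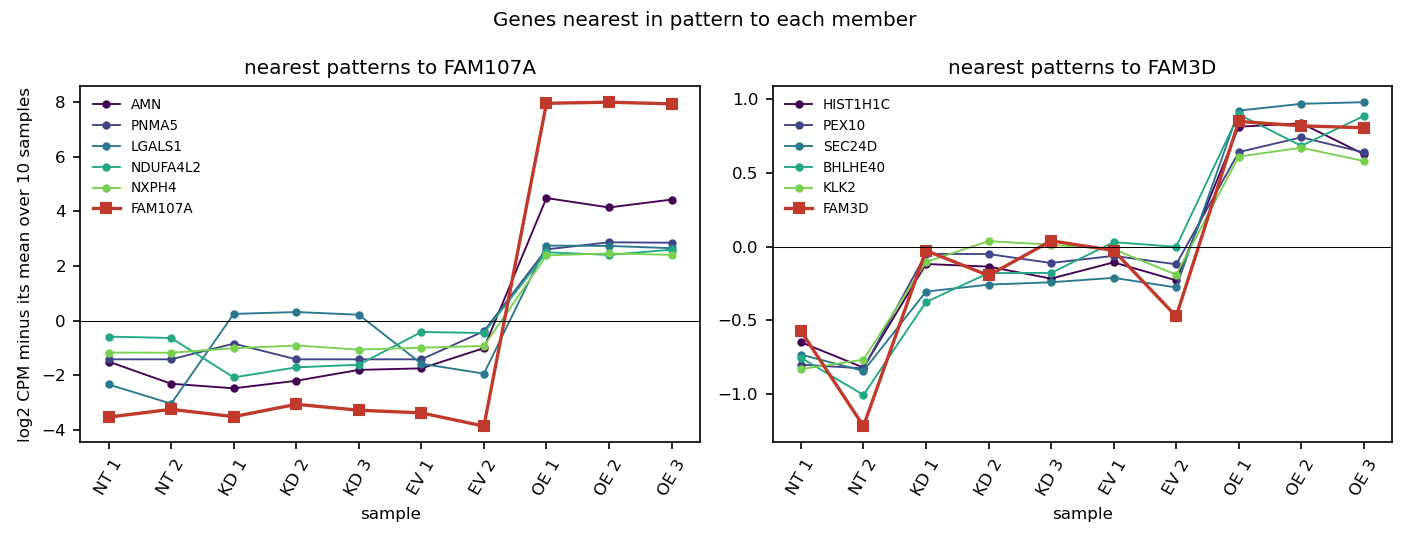
Log2 CPM (prior count 2) minus its mean over the 10 samples, by sample, for FAM107A (left) and FAM3D (right) and the 5 tested genes nearest to each by root mean square difference; lines join the samples of a gene and imply no order. FAM107A is flat outside OE and rises far more than its nearest genes (2.43 to 3.64 away). FAM3D has a low NT, a middle KD and EV and a high OE. Its nearest genes (0.184 to 0.232 away) share this course because they were picked for closeness over the same samples.

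Genes around the pair could be tested, since the choice did not use them. Of 58 other annotated genes that start within 2 Mb of the pair, 37 had a row in the counts and 20 were tested in a fit over all 10 samples and 17230 genes. A gene was called at an edgeR adjusted p under 0.0001. In OE against EV, 1 neighbour was called higher and 3 lower, where 11.6% of all tested genes were called higher and 10.3% lower. In KD against NT, 3 were higher and 1 lower (16.4% and 12.8% of all genes). In EV against NT, 1 was higher and no other was called (5.25% higher and 2.91% lower over all genes). The interaction called 1 higher and 3 lower (6.94% and 8.98%).

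With 20 neighbours these are few genes, and whether their shares differ from the background was not tested. The median log2 fold change of the neighbours was -0.12 in OE against EV, 0.10 in KD against NT, -0.04 in EV against NT and -0.15 in the interaction, beside -0.02, -0.02, -0.0042 and -0.02 for all tested genes. Over the 854 tested genes placed on chromosome 3 the medians were -0.11, -0.12, -0.11 and 0.0019. Their range in OE against EV was -1.07 to 0.68 for the neighbours, so none approached the 11.84 of FAM107A. With library size alone as the scaling, the median over all genes moved to -0.15 in the interaction and -0.12 in OE against EV, and the share of calls that were higher went from 43.6% to 24.6% and from 53.0% to 36.1%. Changes in those comparisons are to be read relative to that shift.

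ACOX2, a peroxisomal oxidase of branched-chain fatty acids and bile acid intermediates and the nearest tested gene downstream of FAM107A, was called in all 4 comparisons. Its CPM was 10.7 in both NT samples, 16.8, 16.4 and 15.4 in KD, 21.2 and 21.4 in EV, and 15.4, 16.2 and 14.2 in OE. The EV samples were the highest, so ACOX2 fell in OE against its own control, where FAM107A was higher. It rose in EV against NT by 0.99 (SE 0.09, edgeR adjusted p = 1.48e-08) and in KD against NT by 0.59 (SE 0.09, edgeR adjusted p = 3.2e-06), and fell by 0.49 in OE against EV (SE 0.08, edgeR adjusted p = 2.33e-05). The interaction was -1.08 (SE 0.12, edgeR adjusted p = 9.13e-08). The ACOX2 call in OE against EV was lost without EV 1, EV 2, OE 1 or OE 3. That in KD against NT was lost without NT 1 or NT 2.

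C3ORF67, now called CFAP20DC and the nearest tested gene upstream of FAM3D, was not called in any comparison. Its CPM was 6.03 and 7.10 in NT, 7.33 to 8.04 in KD, 5.34 and 5.84 in EV and 5.06 to 6.81 in OE. The log2 fold changes were 0.07 in OE against EV, 0.22 in KD against NT, -0.23 in EV against NT and -0.15 in the interaction, with edgeR adjusted p of 0.68, 0.138, 0.236 and 0.551. The genes on either side of the pair therefore held values of another order than FAM107A in OE.

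**Figure D4:**
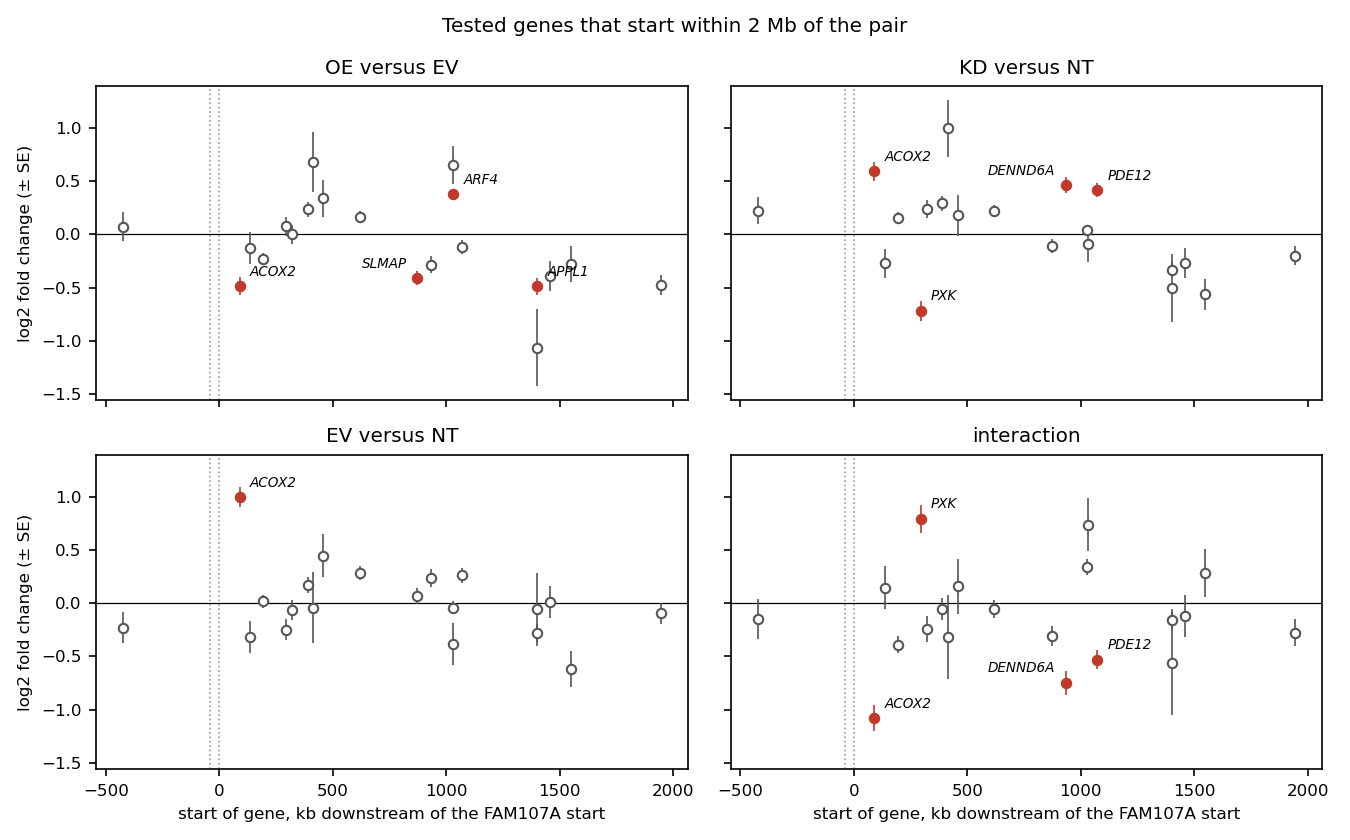
Log2 fold change (points, with bars of ± 1 SE from the edgeR fit over 10 samples) of the 20 tested genes that start within 2 Mb of the pair, by distance of the gene start downstream of the FAM107A start in kb; dotted lines mark the starts of FAM107A and FAM3D, which are not plotted. Filled points are genes called at an adjusted p under 0.0001, and all 20 lie between -1.08 and 1.0 in all 4 comparisons.

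The other called neighbours changed in different directions. ARF4, a small GTPase of the Golgi, rose in OE against EV by 0.38 (edgeR adjusted p = 3.18e-06). APPL1, an endosomal adaptor, fell by 0.49 (edgeR adjusted p = 9.14e-06) and SLMAP, a membrane-anchored scaffold protein, fell by 0.41 (edgeR adjusted p = 1.47e-05) in the same comparison. PXK, a PX domain protein, fell by 0.72 in KD against NT (edgeR adjusted p = 3.5e-07), where DENND6A, a Rab exchange factor, rose by 0.47 (edgeR adjusted p = 2.03e-05) and PDE12, a mitochondrial deadenylase, rose by 0.41 (edgeR adjusted p = 6.96e-06). In the interaction PXK was 0.79 higher (edgeR adjusted p = 2.27e-05, and 0.000437 with library size alone, where the call was lost), DENND6A was lower (-0.75, edgeR adjusted p = 7.82e-06) and so was PDE12 (-0.53, edgeR adjusted p = 4.53e-05). Of 17 alternatives, 4 lost the PXK interaction call, 3 lost that of DENND6A and 6 lost that of PDE12.

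Directions of these calls held under all alternatives, but many calls were lost when a sample, control or not, was left out. Calls over all genes moved as well, in OE against EV from 3778 to 2067 without EV 1 and 1740 without EV 2, in KD against NT from 5022 to 3110 without NT 1 and 3278 without NT 2, in EV against NT from 1405 to between 509 and 631 without an NT or EV sample and to 2438 without KD 2, and in the interaction from 2744 to 1786 without NT 1 and 1792 without EV 2, so the shares above depend on these samples. Called neighbours in OE against EV went from 4 to 1 without EV 1, 0 without EV 2 and 2 without OE 1, and in KD against NT from 4 to 1 without NT 1 or NT 2. In the interaction they went from 4 to 2 without NT 1, EV 1, EV 2 or OE 1 and to 1 without NT 2, and in EV against NT from 1 to 2 without KD 2. The ACOX2 calls in EV against NT and in the interaction and the PXK call in KD against NT held throughout, with edgeR adjusted p of at most 2.91e-06, 3.2e-06 and 8.11e-05.

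Relatives of the pair were measured in all lines. FAM107B, the only paralogue of FAM107A in the list, had 29.3 and 31.0 CPM in NT, 26.02 to 29.5 in KD, 25.2 and 28.7 in EV and 20.9 to 23.9 in OE. It was not called, with log2 fold changes of -0.27 in OE against EV (SE 0.08, edgeR adjusted p = 0.00601) and -0.16 in the interaction (SE 0.11, edgeR adjusted p = 0.267). Its OE samples were the lowest, opposite to FAM107A.

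Of the other FAM3 genes, FAM3A, which encodes a mitochondrial protein, had 52.3 and 52.1 CPM in EV and 69.6, 72.3 and 68.7 in OE. It rose in OE against EV by 0.43 (SE 0.05, edgeR adjusted p = 5.55e-07, at most 8.2e-05 over the alternatives) and was higher in the interaction by 0.46 (SE 0.08, edgeR adjusted p = 3.15e-05). The interaction call was lost with library size alone (edgeR adjusted p = 0.00075) and without NT 1, NT 2, EV 1, EV 2 or OE 1. FAM3C, a secreted protein with roles in epithelial transition, had 21.6 and 21.9 CPM in NT, 17.5 to 20.4 in KD, 20.5 and 21.5 in EV and 17.1 to 17.9 in OE, and was not called.

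FAM3B, a secreted protein first known from pancreatic islets, was a low-count gene like FAM3D. It had 9 and 16 counts in NT, 42, 47 and 62 in KD, 12 and 28 in EV, and 30, 26 and 34 in OE. In CPM the KD samples were the highest, at 1.61 to 2.06, and the OE samples (1.18 to 1.31) were just above EV (0.468 and 1.14). FAM3B rose in KD against NT by 1.92 (SE 0.33, edgeR adjusted p = 2.31e-05), a call lost with limma-voom (limma-voom adjusted p = 0.000108) and without NT 1 (edgeR adjusted p = 0.00305), NT 2 or KD 3. Its interaction of -1.29 (SE 0.48, edgeR adjusted p = 0.0328) was not called.

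The formyl peptide receptors were at or near 0. FPR1 had 7 counts in KD 2 and 0 in the other 9 samples, FPR3 had 1 count in KD 2, and FPR2 had 0 in all 10 samples, which at 3 counts allows up to 0.0994 to 0.136 CPM. None was tested. The only receptor counts thus came from the library that stood apart from its replicates.

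FAM107A is known as a glucocorticoid-inducible gene, and 16 genes known for such induction were listed, of which 15 were tested. In OE against EV, 6 were called higher and 3 lower, the latter FKBP5, KLF9 and SESN1. In KD against NT, 6 were higher and 3 lower (DUSP1, ERRFI1 and TSC22D3), and in EV against NT the 3 called were all higher (FKBP5, SGK1 and ZBTB16). The interaction called 5 higher (CDKN1C, CEBPD, DUSP1, MT2A and TSC22D3) and 3 lower (FKBP5, SESN1 and ZBTB16). Median log2 fold changes were 0.34, 0.03, -0.01 and 0.16, beside -0.02, -0.02, -0.0042 and -0.02 over all tested genes. Of all tested genes 11.6%, 16.4%, 5.25% and 6.94% were called higher and 10.3%, 12.8%, 2.91% and 8.98% lower in the same order; whether the list differs from these shares was not tested. Its members did not move as a block.

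FKBP5, a co-chaperone of steroid receptors, had 99.3 and 96.04 CPM in NT, 386, 332 and 359.5 in KD, 288 and 262 in EV and 178, 176.5 and 181 in OE. It rose in KD against NT by 1.88 (SE 0.06, edgeR adjusted p = 1.02e-17) and in EV against NT by 1.49 (SE 0.06, edgeR adjusted p = 8.64e-15), and fell by 0.62 in OE against EV (SE 0.05, edgeR adjusted p = 2.3e-09). TSC22D3, the glucocorticoid-induced leucine zipper, took the opposite course, with 195 and 191 CPM in NT, 94.0, 121 and 110.4 in KD, 169 and 170.1 in EV and 340.5, 366.5 and 326 in OE. It rose in OE against EV by 1.02 (SE 0.07, edgeR adjusted p = 3.08e-11) and fell by 0.83 in KD against NT (SE 0.07, edgeR adjusted p = 2.27e-10).

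DUSP1, a phosphatase of MAP kinases, rose in OE against EV by 0.78 (SE 0.08, edgeR adjusted p = 4.57e-08) and fell by 0.65 in KD against NT (SE 0.09, edgeR adjusted p = 2.1e-06). The latter call was lost without NT 2 (edgeR adjusted p = 0.000296). MT2A, a metallothionein, rose in both, by 1.53 (SE 0.07, edgeR adjusted p = 2.07e-14) and 0.75 (SE 0.07, edgeR adjusted p = 2.28e-09). These 4 genes were named because they had the smallest interaction p in the list. That each was called in the interaction is therefore no separate result. Their interaction values were -2.50 for FKBP5, 1.85 for TSC22D3, 1.42 for DUSP1 and 0.78 for MT2A. The MT2A call was lost with library size alone (edgeR adjusted p = 0.000101). With library size alone the interaction called 2 higher and 3 lower in place of 5 and 3, and its list median was 0.03 beside -0.15 for all genes. Called genes of the list in the interaction also went from 8 to 5 without NT 2, EV 1, EV 2 or OE 1.

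The FAM107A protein is known to bind actin, and 28 of 29 listed genes were tested, made up of actin, its bundling and binding proteins and SRF, a transcription factor of actin genes that adds 1 to the higher counts of OE against EV, KD against NT and EV against NT. In OE against EV, 8 were called higher and 3 lower (CTTN, PLS3 and TPM2). In KD against NT, 15 were higher and 3 lower (ACTG1, PFN2 and ZYX), and in EV against NT 7 were higher and 2 lower (PFN2 and PLS3). The interaction called 2 higher (ACTG1 and PFN2) and 5 lower (ACTN1, CTTN, FLNA, TAGLN2 and VCL). With library size alone the interaction called 1 higher and 8 lower, with a median of -0.33 beside -0.15 for all genes. Medians in the 4 comparisons were 0.10, 0.31, 0.17 and -0.20, and the shares called over all genes were 11.6%, 16.4%, 5.25% and 6.94% higher and 10.3%, 12.8%, 2.91% and 8.98% lower; the difference from them was not tested. With library size alone the median in OE against EV was -0.0016, a change of sign that follows the shift of all genes to -0.12, and the calls were again 8 higher and 3 lower. All 6 tested stromal, glial, endothelial and leukocyte markers had a positive log2 fold change in KD against NT (median 0.93), with 1 called. That median includes GFAP and MYH11, which had few counts in NT. A link between these markers and the actin calls was not tested.

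ACTG1, cytoplasmic gamma actin, had 2231 and 2178 CPM in NT, 1154, 1183 and 1056 in KD, 2304 and 2224 in EV and 2928, 3216 and 2898 in OE. It fell by 0.96 in KD against NT (SE 0.05, edgeR adjusted p = 1.98e-13) and rose by 0.41 in OE against EV (SE 0.05, edgeR adjusted p = 1.04e-06), the latter lost without EV 2 (edgeR adjusted p = 0.000248). TAGLN2, a calponin-like actin binder, rose by 1.10 in KD against NT (SE 0.06, edgeR adjusted p = 6.35e-14), and its interaction was -0.83 (SE 0.08, edgeR adjusted p = 7.92e-09). ACTG1, TAGLN2, ACTN1 and CTTN were named for the smallest interaction p in the list, so their interaction calls are no separate result. ACTN1, a crosslinking alpha-actinin, rose by 0.58 in KD against NT (SE 0.05, edgeR adjusted p = 4.62e-10). CTTN, the branch-point protein cortactin, fell by 0.25 in OE against EV (SE 0.04, edgeR adjusted p = 4.54e-05), a call lost under 9 of 17 alternatives (p up to 0.00863).

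Called genes of the actin list in EV against NT went from 9 to 3 without NT 1, to 4 without NT 2, EV 1 or EV 2 and to 14 without KD 2. Those in OE against EV went from 11 to 5 without EV 2.

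**Figure D5:**
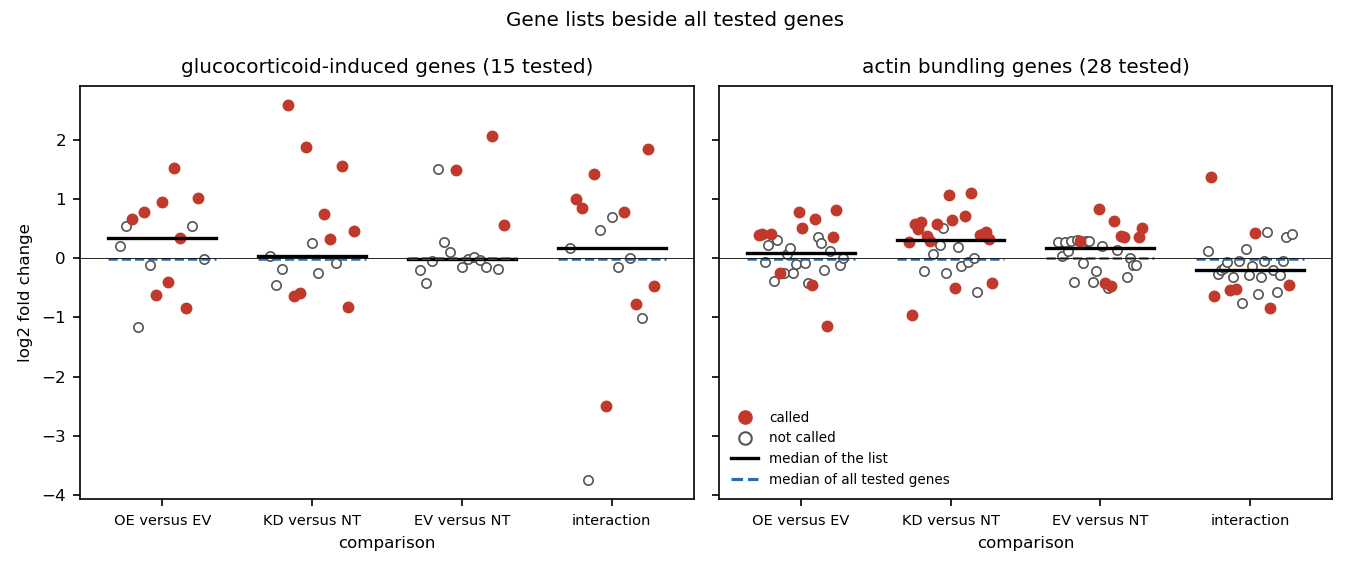
Log2 fold change from the edgeR fit of each tested gene of the glucocorticoid-induced list (15 genes) and the actin bundling list (28 genes) in 4 comparisons. Filled points are called at an adjusted p under 0.0001, black bars are list medians and dashed lines the medians of all 17230 tested genes; the list medians run from -0.20 to 0.34, and members lie on both sides of 0 in every comparison.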

How the data were processed

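Per the labels and the methods of the study, the authors made mRNA libraries, read in pairs of 150 bp, trimmed adapters with BBDuk, dropped reads under 50 bp and aligned with STAR 2.6.0a to the Ensembl human transcriptome. The deposited counts are whole numbers per gene symbol, and 0 columns were left out. Members and gene lists were chosen with earlier results of these data known.

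Counts were filtered with filterByExpr, scaled with TMM and fitted with 1 mean per line in edgeR 4.0.16 (R 4.3.3), with Benjamini-Hochberg adjustment over 17230 genes and calls under 0.0001. Members carry no p. Log2 CPM used a prior count of 2. Positions came from GENCODE v44, matched by symbol or synonym, which placed 84.3% of tested genes.

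Named genes were the pair, CPT1A, its relatives and receptors, called or adjacent neighbours, 4 genes per list by interaction p and 5 nearest patterns per member; others were named after their values were seen. Alternatives were DESeq2 1.42.0 size factors or test, limma 3.58.1 voom, library size alone, other filters and limits, a 5 Mb window, the replicate block and leaving out each sample.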

Additional observations from a re-analysis of the deposited data

How the results depend on the processing

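With a sample left out, the FAM107A difference of OE from EV was 11.59 to 12.19 and its interaction was 11.45 to 12.06. In KD against NT it was -0.03 to 0.30 and in EV against NT -0.59 to 0.012, moved by EV 1 and EV 2. FAM3D was 0.87 to 1.35 in OE against EV, 0.54 to 1.23 in KD against NT, 0.36 to 1.04 in EV against NT and -0.14 to 0.54 in the interaction. A lone remaining EV or NT sample is assumed to vary like the other lines. FAM107A gave no value where 10 counts were needed in every sample.

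Called neighbours ranged from 0 to 5 in OE against EV, 1 to 4 in KD against NT, 1 to 2 in EV against NT and 1 to 6 in the interaction with a sample left out. Glucocorticoid genes ranged from 5 to 10 in the interaction, and actin genes from 5 to 15 in OE against EV and 3 to 14 in EV against NT. At an adjusted p under 0.05, called neighbours were 13, 11, 6 and 8 in the 4 comparisons, actin genes 21 in OE against EV, 18 in EV against NT and 18 in the interaction, and glucocorticoid genes 7 in EV against NT, where 52%, 57.5%, 34% and 44.3% of all tested genes were called in the 4 comparisons. Within 5 Mb, called neighbours were 8 of 30 tested in OE against EV, 9 in KD against NT and 4 in EV against NT. Without a filter, 2 neighbours and 14 actin genes were called in EV against NT. Library size alone gave 5 glucocorticoid genes in the interaction. Causes were not tested.

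Replicate numbers do not pair the samples: residuals of same-numbered samples correlated at -0.0443 to 0.0783 (13 pairs) and those of others at -0.081 to 0.063 (24 pairs). With the replicate block in the model, FAM107A was 11.86 and FAM3D 1.07 higher in OE than in EV, and called neighbours were 5, 4, 1 and 4 in the 4 comparisons.

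Over all genes, calls in EV against NT went from 1405 to 2306 without a filter, 2438 without KD 2 and 1146 without OE 1. Those in OE against EV went from 3778 to 4888 without a filter, 4969 without KD 2 and 2884 without OE 1. Both fell further without an EV sample. Of 45 gene calls checked, 25 held under every alternative, 20 were lost under at least 1 and 0 reversed. Low counts limit FAM107A outside OE, FAM3D and FAM3B.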

Other observations

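Other genes stood out in 1 line, picked after their values were seen and given without a test. AMN had 1333, 924 and 1321 counts in OE and 9 to 27 in the 7 other samples, and PNMA5 had 30, 32 and 37 in OE and at most 2 elsewhere. ALDH1L2, a mitochondrial folate enzyme, had 379 and 395 counts in EV and 12 to 50 elsewhere, so the control of the OE line has features of its own. SHISA2 had 137 and 104 counts in EV and 4 to 17 elsewhere. In NT, LINC00632 had 2050 and 1931 counts, against 44 to 303 elsewhere. TXNIP, a thioredoxin-binding protein, had 3625, 3467 and 4423 counts in KD and 119 to 1152 in the other lines.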
